A study of Salmo salar with 79 samples.

Results

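The transcription of wounded skin was set against that of intact skin in Atlantic salmon (Salmo salar) kept at high fish density (HFD). Arrays of 5 HFD wounds at 7 days post wounding (dpw) and of 4 HFD skins before wounding were used, and these 9 arrays were chosen by their labels out of 79 in the series. Each array held the RNA of another fish. The fish were smolts that had gone from fresh water into seawater, stocked in 1 tank at 100 kg/m3 for HFD and in 1 tank at 20 kg/m3 for the control treatment. The intact HFD fish had lived in the same crowded tank as the wounded HFD fish, so that density was shared by both groups. Wounding, the 7 days between the samplings and the array slide differed together between the groups. Wounds were biopsy punches made under anesthesia, and the RNA came from a piece of the wound with the skin around it. Strain and sex of the fish are not given in the sources used here. With 1 tank per density, tank and density cannot be told apart in any comparison with control fish, and p-values measure the spread between fish of 1 tank.

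Skin wounds of fish close quickly under a sheet of migrating epidermal cells, which in Atlantic salmon is covered by a protective mucus layer. Below it, neutrophils and macrophages clear damaged tissue, and their proteases, oxidants and lipid mediators are followed by a phase in which cells divide and fibroblasts rebuild the dermis with collagen. Each level given here is the log2 background-subtracted signal of a probe minus the 75th percentile of its array, so that 0 is the 75th percentile and a step of 1 is a doubling. In whole pieces of skin, fewer cells of a type and less RNA per cell cannot be told apart.

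No spot was saturated, and the share of the 14841 probes lying well above background was 80.1% to 91.4% on these arrays. Skin markers were high in every fish, with type II keratin E3 at 4.33 or above and mucin 5AC at 3.55 or above. The 75th percentile of the raw intensity lay between 368 and 479 in intact skin and between 660 and 881 in the wounds. All wound arrays lay on slides 5, 6 and 7 and all intact arrays on slides 9 and 10, so that slide and wounding cannot be told apart within this comparison. Correlations between arrays (across probes) were 0.951 to 0.980 among wounds, 0.953 to 0.981 among intact fish and 0.858 to 0.919 between the groups. Intact fish 3 and wound fish 3 stood apart from the rest of their groups, wound fish 3 with the lowest level of its group for many inflammatory probes. Counts that moved when either was left out are given with the result. Gene names were known for 771 probes, from the list of genes that the study selected on these same arrays for a difference between HFD and control. That list is not a random sample of the array and gives no independent evidence on genes that differ between densities. Since the HFD arrays of each day took part in that choice, list counts between days of HFD fish are not independent of it either.

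Of 13052 probes tested with limma, 4194 (32.1%) differed between HFD wounds at 7 dpw and intact HFD skin at a Benjamini-Hochberg adjusted p under 0.05 and a log2 fold change beyond 0.8. Such a probe is said to have risen or fallen, and sizes are log2 fold changes unless given as a fold. There were 1556 rises (11.9% of those tested) and 2638 falls (20.2%). Changes beyond 2 on the log2 scale were 374 rises and 514 falls, and beyond 4 they were 49 rises and 29 falls. The levels of the 5 wounds and of the 4 intact fish did not overlap for 5014 probes (38.4%), and 3458 (26.5%) were both called and free of overlap. Of the 767 named probes tested, 450 (58.7%) were called, 266 as rises and 184 as falls. Leaving out 1 fish at a time gave between 3818 and 4242 calls.

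The balance of rises and falls depended on how the arrays were scaled, since the median log2 fold change over all tested probes was −0.23 and not 0. Rises made up 37.1% of the calls with the 75th percentile, 52.95% after quantile normalization, 22.5% after normexp background correction of the median signals and 55.5% with fold changes centred on their median. In the authors' value table, whose arrays were scaled to one total, 82.6% of the calls were rises and the median was 0.41. Small falls and small rises should be read against these shifts, which lie between −0.49 and 0.41. The gene lists below are described by their counts and by their median beside the median of −0.23. Their counts are to be read against the 11.9% of all tested probes that rose and the 20.2% that fell. All list members come from the 767 named probes tested, of which 266 rose, 184 fell and 58.7% were called, with a median of 0.11. List counts are to be read against these numbers as well. A list whose shares lie near them does not stand out among the named probes, even where it exceeds the shares of all probes.

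**Figure D1:**
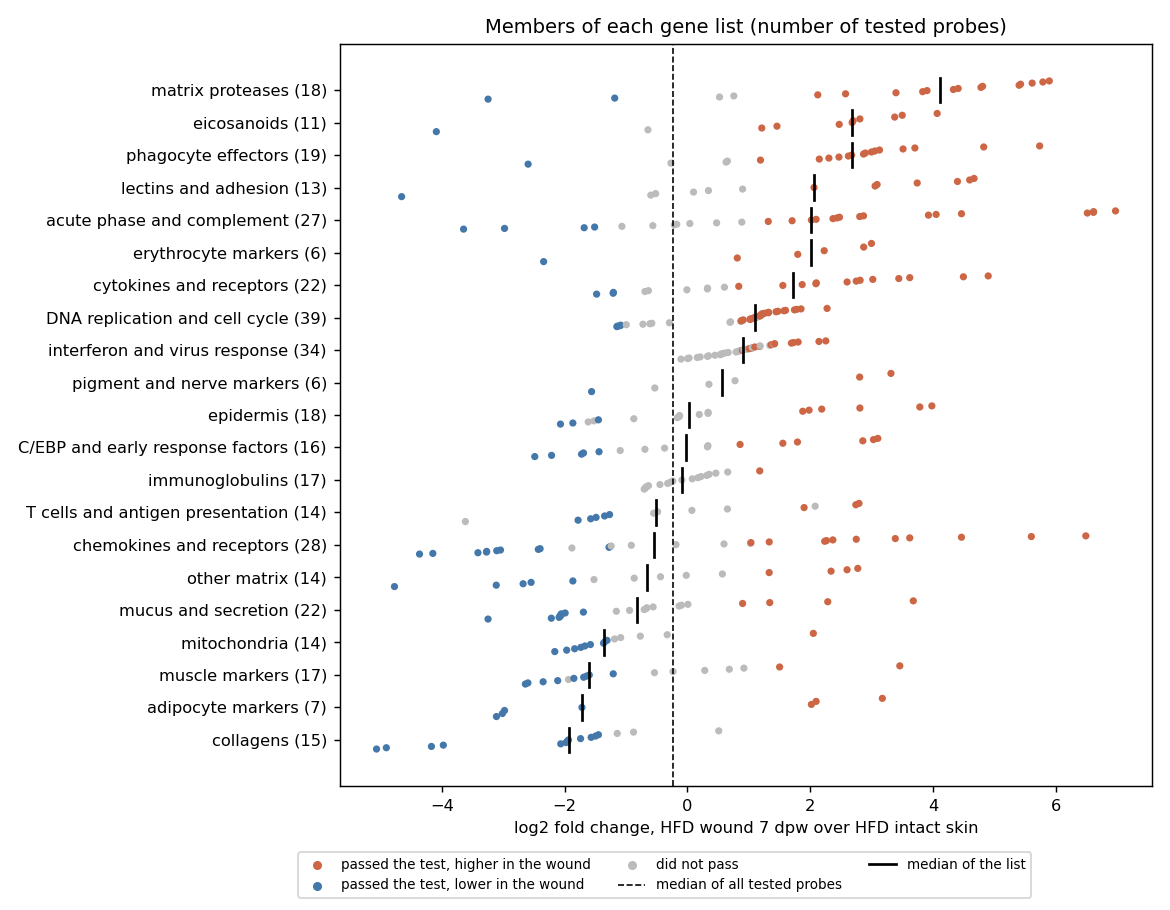
Log2 fold change (x axis, HFD wound at 7 dpw over intact HFD skin) of each tested probe in 21 gene lists (y axis, number of tested probes in brackets), coloured by whether it rose, fell or did not pass, with the median of each list as a bar and that of all tested probes as a dashed line at −0.23. Matrix proteases have the highest median (4.12) and collagens the lowest (−1.94).

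Proteases that cut the extracellular matrix rose. Of 18 matrix proteases and their inhibitors, 14 rose and 2 fell, with a median log2 fold change of 4.12. Collagenase 3 (mmp13), which cleaves fibrillar collagen, had levels of −1.87, 0.04, 1.69 and 0.27 in the 4 intact fish and of 6.14, 6.31, 4.84, 6.37 and 5.96 in the 5 wounds. The groups lay far apart, with wound fish 3 lowest among the wounds and intact fish 3 highest among intact fish, and the difference was 5.89 ± 0.63 (SE, limma adjusted p = 0.00019), or 59.5-fold. The other collagenase 3 probes rose by 5.79 and 5.43. Matrix metalloproteinase-9 (mmp9), a gelatinase stored in neutrophil granules of mammals, was read by 4 probes, all of which rose. Its first probe had levels of −1.40, −0.23, 1.37 and 0.17 in intact skin and 5.60, 5.94, 4.55, 6.06 and 5.80 in the wounds, a difference of 5.62 ± 0.52 (adjusted p = 0.00011). Further mmp9 probes differed by 5.40 and 3.90, and one that was not well above background in intact skin was at least 5.80-fold higher in the wounds. The change of that dim probe was 0.42 with normexp, where its call was lost (adjusted p = 0.15). Matrix metalloproteinase-25, membrane bound and found on leukocytes, rose by 3.40. The inhibitors moved with the enzymes. Metalloproteinase inhibitor 2 (TIMP2) rose from between −2.83 and −2.06 to between 1.47 and 2.24, by 4.33 ± 0.22 (adjusted p = 5.0e-05). Plasminogen activator inhibitor 1, which restrains the clearing of fibrin, rose by 4.81, and urokinase plasminogen activator, which drives it, by 2.12. Cystatin-F, an inhibitor of cysteine proteases in immune cells, rose by 2.58 (as little as 0.97 over the alternative settings). Serine protease 23 fell by 3.25 with overlap between the groups, since wound fish 2 at −0.73 lay above intact fish 3 at −0.79.

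Genes of neutrophils and macrophages rose together. Of 19 phagocyte effector probes tested, 15 rose and 1 fell, with a median of 2.68. Neutrophil cytosolic factor 1, the p47 subunit that switches on the NADPH oxidase, had levels of −1.83, −2.34, −1.25 and −1.39 in intact skin and 3.18, 3.75, 2.09, 3.63 and 2.97 in the wounds (difference 4.83 ± 0.36, adjusted p = 5.8e-05). No wound fish came near the intact fish. Neutrophil cytosolic factor 2, its p67 partner, rose from between −4.18 and −3.25 to between −0.63 and 0.47. Myeloperoxidase, the chlorinating enzyme of neutrophil granules, rose by 2.68 on the log2 scale, integrin beta-2, the shared chain of leukocyte integrins, by 2.90, and PU.1, a transcription factor of myeloid cells, by 2.62. Inducible nitric oxide synthase had levels of −4.93, −4.41, −0.66 and −2.74 in intact skin and −0.16, −0.54, 1.49, −0.18 and 1.01 in the wounds (3.51 ± 0.83, adjusted p = 0.0076). Here intact fish 3 lay within a log2 unit of most wounds, and the groups were separated by a small gap. Cathelicidin, an antimicrobial peptide, stood at −1.73, −2.02, 3.08 and 0.93 before wounding and between 5.48 and 6.14 in every wound, a rise of 5.74 ± 0.93 (adjusted p = 0.0012). Defensin beta 4, another antimicrobial peptide, fell by 2.59 ± 0.47 (adjusted p = 0.0019), from 2.43 to 4.23 in intact skin to −0.59 to 1.32 in the wounds.

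**Figure D2:**
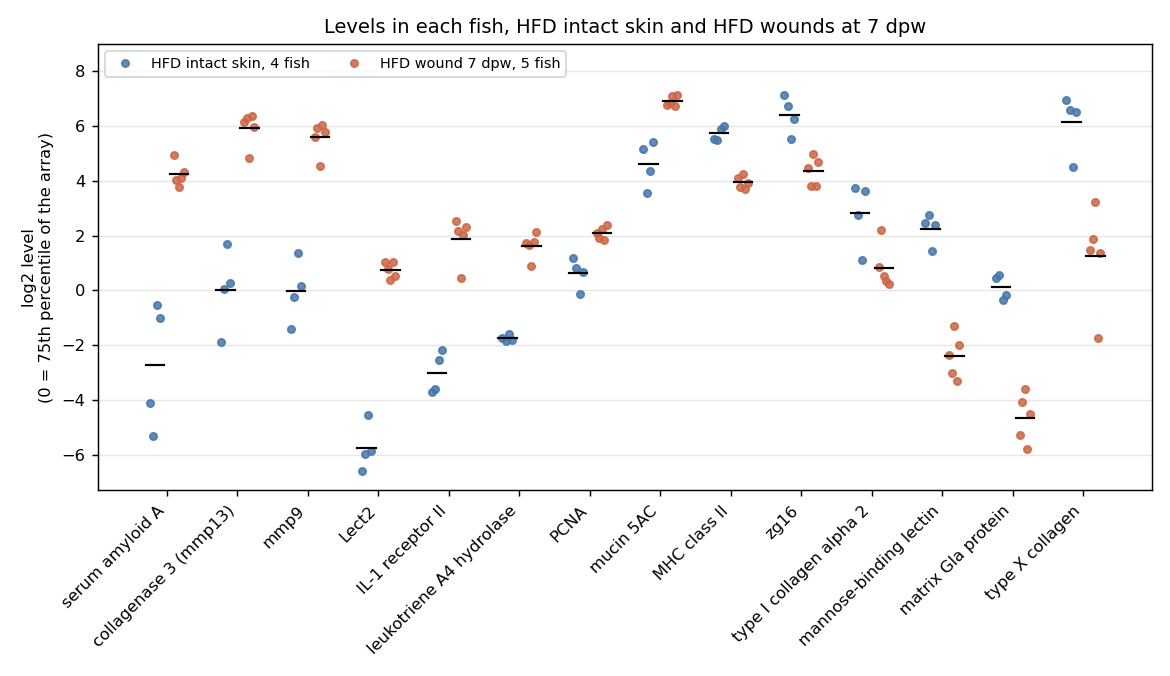
Level of 14 probes in each fish (y axis, log2, 0 at the 75th percentile of the array), with intact HFD skin (4 fish) in blue, HFD wounds at 7 dpw (5 fish) in red and bars at the group means. The groups do not overlap except for type I collagen alpha 2.

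Enzymes that make leukotrienes rose. Of 11 eicosanoid probes, 9 rose and 1 fell, with a median of 2.68. Cytosolic phospholipase A2 gamma, which belongs to the enzymes that release fatty acids from membranes, rose by 4.07 ± 0.48. Arachidonate 5-lipoxygenase rose by 2.47 ± 0.23 and its activating protein by 3.50 ± 0.31. Leukotriene A4 hydrolase, which makes leukotriene B4, had levels of −1.75, −1.85, −1.57 and −1.79 in intact skin and 1.75, 1.64, 0.90, 1.76 and 2.12 in the wounds. The intact fish lay within 0.3 of each other, and the difference of 3.38 ± 0.23 (adjusted p = 5.3e-05) corresponded to 10.4-fold. Cytochrome P450 4F3, which in mammals breaks leukotriene B4 down, rose by 2.68. The leukotriene B4 receptor 1 was called by a narrow margin (1.46 ± 0.51, adjusted p = 0.042) and its groups overlapped. That call was lost when intact fish 1 or 4 or wound fish 1, 2, 4 or 5 was left out (adjusted p 0.050 to 0.082). Prostaglandin G/H synthase 2b, the inducible cyclooxygenase, rose by 2.70 (adjusted p = 0.0078), while normexp left only 0.38 of this rise of a dim probe. Its call was lost with normexp (adjusted p = 0.25) and with the replicate number as a block (0.053). Lipocalin-type prostaglandin D synthase moved against the list. It had levels of 3.75, 4.48, 3.54 and 3.88 in intact skin and −0.73, −1.35, 0.93, −1.03 and 1.28 in the wounds, a fall of 4.09 on the log2 scale (adjusted p = 0.00050).

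Cytokines and their receptors rose more often than they fell, with 13 rises and 3 falls among 22 probes and a median of 1.71. Interleukin-1 receptor type II, a decoy that binds interleukin-1 without signalling, had levels of −3.69, −3.61, −2.52 and −2.19 in intact skin and 2.52, 2.18, 0.45, 2.01 and 2.31 in the wounds (4.90 ± 0.48, adjusted p = 0.00013). Wound fish 3 stood below the other wounds, yet above all intact fish. Of the interleukin-1 beta probes, one rose by 3.02 (adjusted p = 0.0042) from levels near the floor, with overlap. It kept 0.04 of that rise under normexp, where its call was lost (adjusted p = 0.86). The probe for interleukin-1 beta 2 differed by −0.64 ± 0.32 (adjusted p = 0.14). It was called as a fall (−0.88, adjusted p = 0.045) when intact fish 3 was left out. M17, a cytokine of the interleukin-6 family, rose by 4.50 (1.27 with normexp) and interleukin-11 by 3.44, both without overlap. A probe named Nxf1, an mRNA export factor that stands in this list, fell by 1.48 (adjusted p = 0.020), and its adjusted p was 0.054 without intact fish 3.

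Chemokines were divided, with 11 rises and 11 falls among 28 probes and a median of −0.55. A chemokine outside this list also rose. Macrophage inflammatory protein 2-alpha, whose mammalian namesake draws neutrophils, had levels of −7.42, −7.46, −5.43 and −5.23 in intact skin and 1.56, 2.53, −1.28, 1.81 and 1.54 in the wounds, a rise of 7.62 ± 0.79 (adjusted p = 0.00017). Its probe was well above background on 2 of the 4 intact arrays, and the rise was 3.91 with normexp. Wound fish 3 was almost 3 log2 units below the other wounds and still far above intact skin. Within the list, a CC chemokine known by its family name alone rose by 5.60 (2.54 with normexp). Leukocyte cell-derived chemotaxin 2 (Lect2), which draws neutrophils in mammals, rose from between −6.59 and −4.53 to between 0.39 and 1.04, by 6.49 ± 0.37 (adjusted p = 5.0e-05), a rise that was 3.40 with normexp. The receptors for the complement fragments C5a and C3a, also members of the list, rose by 4.46 and 2.24. Over the alternative settings the rise of the C5a receptor was as small as 2.09. C-C motif chemokine 25 rose by 1.33.

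The falling chemokines belonged to a few named families. All 4 probes of C-C motif chemokine 20, a chemokine of epithelia in mammals, fell, by 4.36, 4.15, 2.43 and 2.40 on the log2 scale. The first of these probes had levels of −1.16, −1.17, −3.13 and −1.11 in intact skin and −6.14, −7.68, −4.12, −6.39 and −5.69 in the wounds, so that intact fish 3 lay 1 log2 unit above the highest wound. Over the alternative settings, the 2 largest of the 4 falls were as small as −2.20 and −2.49. Of the 3 probes of C-C motif chemokine 28, which is made by mucosal epithelia in mammals, 2 fell by 3.41 and 3.27, and the third differed by −1.88 (adjusted p = 0.059). The 3 probes of C-C motif chemokine 21, which guides lymphocytes and dendritic cells in mammals, fell by 3.27, 3.11 and 3.04 with adjusted p between 0.026 and 0.034. The wounds were split, since the first probe stood at −0.93, −3.08, 2.35, −1.97 and 1.49 against 2.36 to 3.41 in intact skin, with wound fish 3 next to the intact fish. Its adjusted p rose to 0.060, 0.065, 0.055 and 0.057 without intact fish 2, intact fish 3, wound fish 1 and wound fish 4. The probe that fell by 3.04 also lost its call without intact fish 1 or 4 (adjusted p 0.054 and 0.061). Both probes of C-X-C motif chemokine 10 fell, by 1.28 and 1.26, with overlap. Both calls were lost without intact fish 3 or without wound fish 1, 3, 4 or 5 (adjusted p 0.054 to 0.087), and the second also without intact fish 2 or 4 (0.055 and 0.050). For the whole list, 6 falls were left without intact fish 3 and 10 without wound fish 3. The authors' value table gave 6 and normexp gave 14.

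Acute phase proteins rose steeply. Of 27 acute phase and complement probes tested, 16 rose and 4 fell, with a median of 2.02. Serum amyloid A, an acute phase protein of the liver that is also made locally in inflamed tissue, was read by 4 probes that rose by 6.97, 6.62, 6.61 and 6.51. The first had levels of −4.09, −5.32, −0.54 and −0.99 in intact skin and 4.93, 4.03, 3.79, 4.10 and 4.31 in the wounds (6.97 ± 0.91, adjusted p = 0.00041). The intact fish formed a low pair, fish 1 and 2, and a higher pair, fish 3 and 4, while the wounds lay close together. Serotransferrin 2, which binds iron, rose by 4.05 (as little as 1.72 over the alternative settings) and haptoglobin, which binds free hemoglobin, by 2.48. Complement C3 rose by 2.37 (adjusted p = 0.028) with overlap, and the call was lost without intact fish 1 or 2 or wound fish 2 or 4 (adjusted p 0.055 to 0.073). With normexp 0.30 of this rise was left (adjusted p = 0.23). The call was also lost by analysis of variance (adjusted p = 0.062) and with the replicate number as a block (0.084). Complement component 9 fell by 1.68 and one complement factor D probe by 2.98. Secreted phosphoprotein 24, a bone matrix protein, was not well above background in any wound and was at least 3.24-fold lower there under the main setting. Its smallest log2 value over the alternative settings was −1.29.

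Adhesion molecules and pattern receptors of leukocytes and vessels rose, with 7 rises and 1 fall among 13 lectin and adhesion probes (median 2.06). P-selectin, with which activated vessels and platelets catch leukocytes, had 3 probes that rose by 4.60, 3.09 and 3.06. The rise of the first was as small as 1.98 over the alternative settings. The first stood between −6.05 and −4.41 in intact skin and between −1.16 and −0.59 in the wounds (4.60 ± 0.30, adjusted p = 5.2e-05). Toll-like receptor 5, a sensor of bacterial flagellin, was not well above background in intact skin and was at least 7.49-fold higher in the wounds. With normexp its log2 rise was 0.70 and its call was lost (adjusted p = 0.089). C type lectin receptor A rose by 4.40, a value without wound fish 3, whose spot was an outlier. A CD209-like C-type lectin rose by 3.74 (as little as 1.73 over the alternative settings). The 1 fall was a C-type mannose-binding lectin, a soluble receptor for microbial sugars, with levels of 2.47, 2.74, 1.42 and 2.39 in intact skin and −2.35, −3.02, −1.30, −3.32 and −2.01 in the wounds. Every wound was below 0 and every intact fish above 1, and the fall was 4.65 on the log2 scale (SE 0.43, adjusted p = 0.00011).

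Genes of antigen presentation fell in part. All 4 probes of MHC class II, the molecules with which dendritic cells, macrophages and B cells present antigen, fell. The first had levels of 5.54, 5.49, 5.91 and 6.01 in intact skin and 4.10, 3.78, 4.26, 3.71 and 3.93 in the wounds, a fall of 1.78 on the log2 scale (SE 0.18, adjusted p = 0.00014). The others fell by 1.58, 1.49 and 1.35, and the 2 smaller falls shrank to −0.80 and −0.64 in the authors' value table. A T-cell antigen receptor probe fell by 1.27 and a T-cell receptor gamma constant region rose by 2.74. In the authors' value table the former was −0.58 and no longer called (adjusted p = 0.098). In the whole list of 14 T cell and antigen presentation probes, 3 rose and 5 fell (median −0.52). Over all tested probes, 11.9% rose and 20.2% fell. SRC-like-adapter, which damps antigen receptor signals in lymphocytes, rose by 2.79. Of 17 immunoglobulin probes, 1 rose and none fell at the adjusted threshold (median −0.09). That rise, of an immunoglobulin heavy chain, was 1.18 (adjusted p = 0.015) and was reduced to 0.21 by normexp. Its call was lost with normexp (adjusted p = 0.40) and with the replicate number as a block (0.077).

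Of 34 probes of the interferon and virus response, 12 rose and none fell, with a median of 0.91. Viperin (radical S-adenosyl methionine domain-containing protein 2), an antiviral enzyme, rose by 2.25 ± 0.49 (adjusted p = 0.0053) and Mx1, an interferon-induced GTPase, by 1.42 (adjusted p = 0.013). Most members overlapped between the groups, with high levels in intact fish 1 and 4 and low levels in intact fish 2. Of the 34, 7 did not overlap, where 38.4% of all tested probes did not. The count of rises was not stable, with 6 without intact fish 3, 7 without wound fish 3, 5 with all 16 groups and slide as a block, 19 with centred fold changes and 27 in the authors' value table.

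Collagen transcription was lower in the wounds. Of 15 probes for collagens and the enzymes that process them, none rose and 12 fell, with a median of −1.94. Type X collagen, a network-forming collagen known from growing cartilage and in fish from bone and scales, had levels of 6.96, 6.59, 4.51 and 6.52 in intact skin and 1.46, 1.86, 3.22, −1.72 and 1.37 in the wounds. Intact fish 3 was lowest among intact fish and wound fish 3 highest among the wounds, without overlap, and the fall was 4.90 on the log2 scale (SE 0.90, adjusted p = 0.0022). The second type X probe fell by 5.06, with −2.64 as its smallest value over the alternative settings. Procollagen C-endopeptidase enhancer 1, which speeds the trimming of procollagen, fell by 4.17 (smallest value −2.75 over the alternative settings). Type XI collagen, a partner of fibrillar collagens, fell by 3.98. Type VII collagen, which anchors the epidermis to the dermis, fell by 1.45. That call was lost in the authors' value table (−0.75, adjusted p = 0.13) and with all 16 groups and slide as a block (0.056).

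Type I collagen, the main fibre of the dermis, was read by 6 probes, of which 5 fell, by 2.06, 1.98, 1.94, 1.74 and 1.57 on the log2 scale. The sixth differed by −1.14 ± 0.43 (adjusted p = 0.052). One of the alpha 2 chain probes had levels of 3.76, 2.74, 1.11 and 3.63 in intact skin and 0.87, 2.21, 0.52, 0.34 and 0.23 in the wounds (SE 0.59, adjusted p = 0.022). Intact fish 3 lay among the wounds and wound fish 2 among the intact fish. Without intact fish 1 or 4 the adjusted p of this probe was 0.059 or 0.060, and the smallest called fall (1.57, adjusted p = 0.048) was lost without intact fish 1, 2 or 4 or wound fish 1, 3, 4 or 5 (0.081 to 0.12). The sixth probe was called without intact fish 3 (adjusted p = 0.0067) and without wound fish 2 (0.039). Of the 15 collagen probes, 5 were free of overlap, where 38.4% of all tested probes were. The count of falls was 14 without intact fish 3, 11 without wound fish 3, 14 with normexp, 7 with the replicate number as a block and 6 in the authors' value table.

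Other matrix genes were divided, with 4 rises and 5 falls among 14 probes (median −0.65), against 11.9% and 20.2% of all tested probes. Matrix Gla protein, an inhibitor of calcification, had levels of 0.45, 0.57, −0.34 and −0.18 in intact skin and −5.28, −4.07, −3.58, −5.79 and −4.52 in the wounds, a fall of 4.77 on the log2 scale (SE 0.44, adjusted p = 0.00011). The gap between the groups was more than 3 log2 units. Papilin, a secreted matrix glycoprotein that belongs to no list, fell by 4.79. Periostin, which links collagen fibres, fell by 2.68, mimecan, a small proteoglycan of connective tissue, by 2.55, and EGF-like-domain multiple 6 by 3.11. Proteins of the early wound matrix rose: fibronectin from between −2.15 and −1.08 to between 0.30 and 1.72, by 2.34 ± 0.34 (adjusted p = 0.00065), and thrombospondin-1 by 2.77. Hyaluronidase-2, which cleaves hyaluronan, rose by 2.60. SPARC, a collagen-binding protein, differed by −0.87 (adjusted p = 0.15) and was called as a fall (−1.15, adjusted p = 0.049) without wound fish 2.

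Epidermal genes gave 6 rises and 3 falls among 18 probes (median 0.03), where 11.9% of all tested probes rose and 20.2% fell. The type I keratin S8 had levels of −0.08, 0.18, 1.66 and 1.28 in intact skin and 4.93, 3.99, 4.73, 4.88 and 5.18 in the wounds, a rise of 3.98 ± 0.39 (adjusted p = 0.00013). Keratin 18, of simple epithelia, rose by 1.88 and the type II keratin E3 by 1.98, without overlap. Gap junction beta-6, a channel between epidermal cells, rose by 3.79 and epidermis-type lipoxygenase 3 by 2.81. Keratin 20 fell by 2.07 and laminin beta-4, of the basement membrane, by 1.87. The laminin call was lost in the authors' value table (adjusted p = 0.059) and with all 16 groups and slide as a block (0.055). Epigen, a ligand of the epidermal growth factor receptor, stood at 0.39, 1.19, −0.14 and 1.86 in intact skin and at 4.57, 4.18, 2.13, 4.52 and 4.54 in the wounds. Wound fish 3 was close to the highest intact fish, and the rise was 3.16 ± 0.58 (adjusted p = 0.0021).

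Mucus genes did not move as one. Of 22 probes, 4 rose and 9 fell, with a median of −0.82. Mucin 5AC, a gel-forming mucin, had levels of 5.17, 3.55, 4.37 and 5.43 in intact skin and 6.77, 6.85, 7.10, 6.72 and 7.14 in the wounds, a rise of 2.29 ± 0.35 (adjusted p = 0.00085). Alpha-N-acetylgalactosaminide sialyltransferase 6, which adds sialic acid to sugar chains, rose by 3.68. Zymogen granule membrane protein 16 (zg16), a lectin of secretory granules, was read by 8 probes and 7 of them fell. The probe with the highest intact levels stood at 7.15, 6.75, 5.52 and 6.25 in intact skin and at 4.47, 3.83, 5.00, 3.82 and 4.70 in the wounds, a fall of 2.05 on the log2 scale (SE 0.37, adjusted p = 0.0019). Intact fish 3 and wound fish 3 lay nearest to each other, without crossing. The other called probes fell by between 1.69 and 3.25, one of them (2.22) without wound fish 1 and 5, whose spots were outliers. The eighth differed by −1.16 (adjusted p = 0.13), and without intact fish 1 it was called (−1.69, adjusted p = 0.025). One giant mucus protein probe fell by 2.09 (adjusted p = 0.0074), while the other differed by −0.10 (adjusted p = 0.82).

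Genes of DNA replication and cell division rose moderately but together. Of 39 probes, 26 rose and 4 fell, with a median of 1.09. GINS protein SLD5, part of the helicase that opens DNA, had levels of −0.72, −1.19, −1.79 and −1.04 in intact skin and 1.11, 0.83, 1.42, 0.93 and 1.15 in the wounds (2.27 ± 0.22, adjusted p = 0.00014). Proliferating cell nuclear antigen (PCNA), the sliding clamp of DNA polymerase, stood at 1.18, 0.82, −0.13 and 0.68 in intact skin and at 2.10, 1.93, 2.26, 1.85 and 2.40 in the wounds (1.47 ± 0.25, adjusted p = 0.0016). In both probes intact fish 3 was lowest of the intact fish, and no wound overlapped with them. Dihydrofolate reductase and a ribonucleotide reductase subunit, which supply nucleotides, rose by 1.85 and 1.78, and the licensing factor MCM3 by 1.32. The falls were small: DNA polymerase delta-4 fell by 1.15, histone H2A by 1.14 and high mobility group-T protein was 2.14-fold lower, and each was between −0.43 and −0.39 and no longer called in the authors' value table. Cell cycle progression protein 1 was the remaining fall (1.09). Without intact fish 3 or without wound fish 3 there were 21 rises, and with the replicate number as a block 20.

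Transcription factors of the early response were divided, with 6 rises and 5 falls among 16 probes (median −0.02). Rises over all tested probes came to 11.9% and falls to 20.2%. The 3 probes of C/EBP beta, which drives acute phase and cytokine genes, rose by 3.10, 3.03 and 2.86. C/EBP delta-1 fell by 1.44 (adjusted p = 0.022), and its adjusted p was 0.054 without intact fish 2 and 0.050 without wound fish 3. FK506-binding protein 5 and TSC22 domain family protein 3, both induced by glucocorticoids in mammals, fell by 2.21 and 1.69. Kruppel-like factor 11a fell by 2.49. Of 14 mitochondrial probes, 1 rose and 9 fell, with a median of −1.36. Malate dehydrogenase, of the citric acid cycle, fell from between 2.72 and 3.81 to between 0.47 and 1.78, by 2.16 on the log2 scale (SE 0.29, adjusted p = 0.00049), while cytochrome c oxidase subunit 4 isoform 2 rose by 2.05. With the values of the authors, 5 of these mitochondrial probes fell.

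Markers of tissues below and beside the skin moved as well. Of 17 muscle probes 2 rose and 9 fell, against 11.9% and 20.2% of all tested probes. Their summed linear level was 48.3 to 141 in intact skin and 16.6 to 29.8 in the wounds (units of the 75th percentile). Such a sum, here and below, is weighted toward the brightest probes and does not stand for every member. Myomesin 2, of the sarcomere, fell by 2.64 and fast myotomal muscle actin 2 by 1.85. Cysteine and glycine-rich protein 3 rose by 3.46 from levels near the floor, with 0.46 left under normexp and its call lost there (adjusted p = 0.36). Of 7 adipocyte probes 3 rose and 4 fell, with summed levels of 27.3 to 42.4 in intact skin and 11.9 to 20.6 in the wounds. Both adiponectin probes fell, by 3.11 and 3.01, and perilipin, the coat of fat droplets, rose by 3.17. Of the 6 probes in the erythrocyte list 5 rose and 1 fell, with summed levels of 3.43 to 6.44 and 4.05 to 18.6. The fall was that of ammonium transporter Rh type B, a gas and ammonia channel. It is included in the count and the summed levels of this list, but its fall is not read here as a mark of erythrocytes. The 3 hemoglobin alpha-4 probes rose by 3.00, 2.87 and 1.80, the last by a narrow margin (adjusted p = 0.049) that was lost without intact fish 1, 3 or 4 or wound fish 1, 2, 3 or 4 (0.074 to 0.13). Of 6 pigment and nerve probes 2 rose and 1 fell, with summed levels of 15.7 to 29.6 and 80.7 to 125. With only 2 of 6 called as rises, the higher sum does not show a rise of these markers as a class. One probe of myelin-associated glycoprotein, of the nerve sheath, rose by 3.31 and neurofascin, of nerve axons, by 2.81, and the melanocyte protein Pmel17 fell by 1.56. All these marker probes were well above background on at least 1 array of each group. The part of such tissues in the falls of collagen, mitochondrial and chemokine genes, and the part of blood in the rises of leukocyte genes, was not tested.

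Some of the largest changes lay outside the lists. Kidney injury molecule, a phosphatidylserine receptor that in mammals takes up dying cells, was not well above background in intact skin. It was at least 23.6-fold higher in the wounds under the main setting, and its log2 rise was as small as 1.85 over the alternative settings. Probes without a name here moved as far. Ssa#S35543997 rose by 6.48 and Ssa#S35491168 by 6.47, the latter from levels near the floor in intact skin, with 3.90 and 2.10 left under normexp, and Omy#CA387357 fell by 5.72 and Omy#S18151131 by 5.36 on the log2 scale.

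The wound at 7 dpw was then placed between the earlier and the later HFD wounds, with 5 fish at each day. Between 3 and 7 dpw 1173 of 12945 probes (9.06%) differed, 650 higher at 7 dpw (5.02%) and 523 lower (4.04%). Replication genes accounted for the clearest list. Of the 39 replication probes, 30 were higher at 7 than at 3 dpw and 2 were lower, with a median of 1.68 where that of all probes was 0.00. In comparison with intact skin 28 of the 39 had fallen at 1 dpw and 18 at 3 dpw, and 4 had fallen on each of the later days, where falls over all probes came to 16.6%, 24.8%, 20.2% and 19.8%. Those comparisons share the 4 intact fish. GINS SLD5 ranged from −1.28 to −0.58 at 3 dpw and from 0.83 to 1.42 at 7 dpw (difference 1.95, adjusted p = 4.5e-05), and PCNA from −0.05 to 0.34 and from 1.85 to 2.40 (1.93, adjusted p = 2.9e-05). Every fish at 7 dpw lay above every fish at 3 dpw for both. The groups shared slides 6 and 7, and with slide as a block 29 replication probes were higher and none was lower.

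Several inflammatory lists had more members lower than higher at 7 dpw than at 3 dpw. Their members were selected in the same way, so that the same limit holds for these counts. Among the matrix proteases 11 of 18 were lower at 7 dpw, among cytokines 14 of 22, among eicosanoids 6 of 11 and among C/EBP and early response factors 6 of 16. Among these lists 1 probe, of the eicosanoids, was higher. With slide as a block these counts were 7, 4, 2 and 1, with none higher, and the calls over all probes numbered 561. Chemokines had 3 higher and 8 lower (1 and 1 with the block) and phagocyte effectors 1 and 5 (1 and 0). Acute phase and complement probes had 6 higher and 4 lower, or 4 and 1 with the block. The first mmp9 probe had means of −0.02 in intact skin and then 6.36, 7.42, 5.59 and 4.29 on the successive days, the highest at 3 dpw. At 7 dpw it was 1.83 lower than at 3 dpw (adjusted p = 0.0019). Serum amyloid A had its highest mean of the 5 time points at 7 dpw, with −2.74, −1.35, 1.54, 4.24 and 3.01 in the same order, and was 2.70 higher at 7 than at 3 dpw (adjusted p = 0.00051). Its 5 fish at 3 dpw ranged from 0.54 to 2.38, below all 5 at 7 dpw.

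The largest named differences between 3 and 7 dpw were also given within the shared slides. Inducible nitric oxide synthase was 3.98 higher at 7 dpw (adjusted p = 0.00069), 5.43 within slide 6, 3.92 within slide 7 and 4.52 with slide as a block (adjusted p = 0.012). Its mean at 7 dpw was 0.33 and its means at the other days lay between −3.83 and −2.23. BRCA2, a repair factor of broken DNA, was 3.21 higher (2.79 and 2.90 within the slides, block 2.85 with adjusted p = 0.032), though at 7 dpw it differed by 0.09 from intact skin. C-C motif chemokine 21 was 3.18 higher, with 2.22 and 3.37 within the slides, and a block for slide left 2.91 with an adjusted p of 0.23. Its adjusted p of 0.045 rose to between 0.061 and 0.098 without any 1 fish of 3 dpw and without fish 1, 3 or 5 of 7 dpw. Among those lower at 7 dpw, a lectin (−4.88), mitochondrial translation initiation factor IF-2 (−3.77) and 6-phosphofructo-2-kinase 2 (−3.49) had values of −0.87, −5.67 and −5.73 within slide 6 and of −5.84, −2.01 and −1.58 within slide 7. Their adjusted p with slide as a block was 0.13, 0.083 and 0.081. The lectin (adjusted p = 0.037) was also not called without any 1 fish of 3 dpw or without fish 1, 3, 4 or 5 of 7 dpw (0.053 to 0.079).

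**Figure D3:**
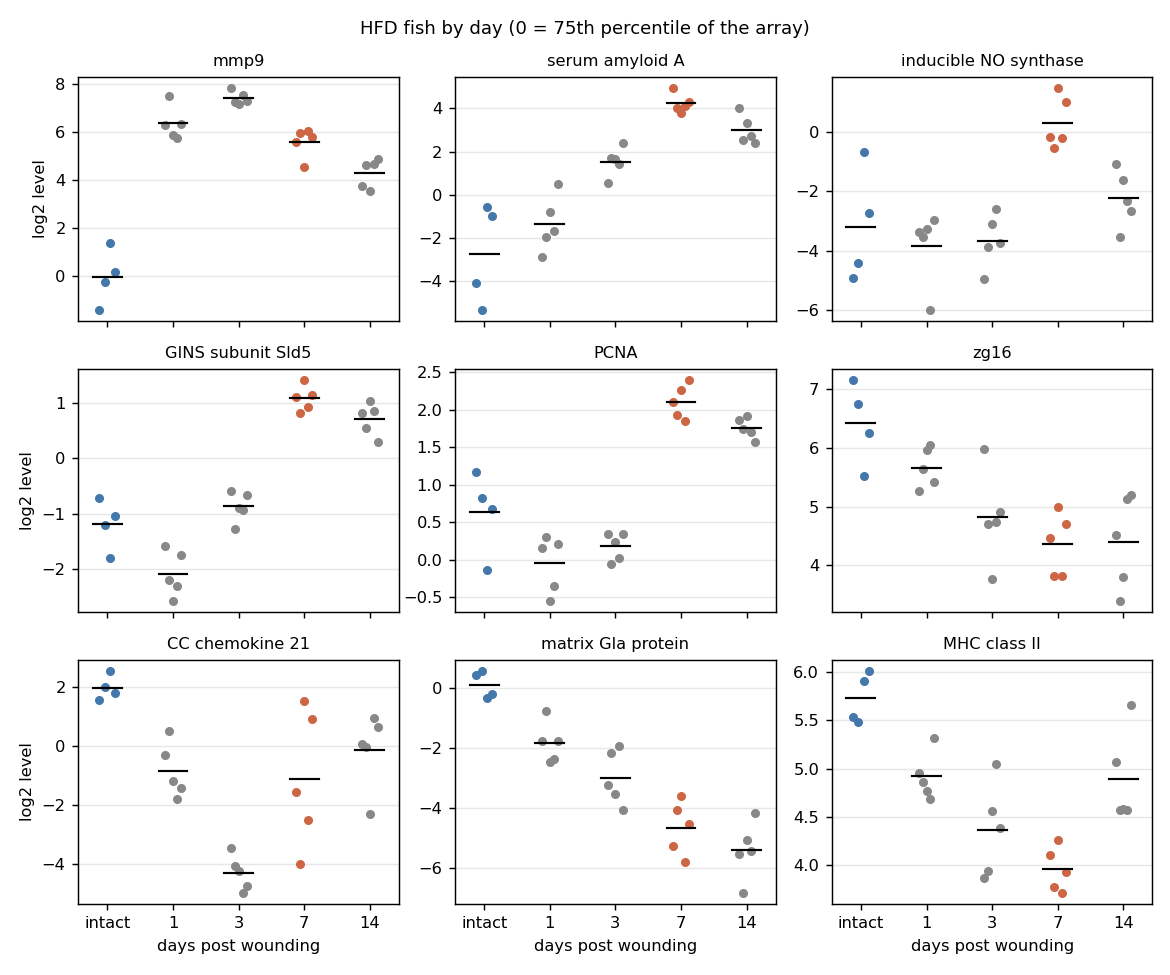
Level of 9 probes (y axis, log2, 0 at the 75th percentile of the array) in each HFD fish before wounding and at 1, 3, 7 and 14 dpw (x axis), with bars at the group means. Mmp9 is highest at 3 dpw, serum amyloid A, nitric oxide synthase, GINS SLD5 and PCNA at 7 dpw, and matrix Gla protein declines through 14 dpw (mean −5.40).

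Between 7 and 14 dpw few probes changed, 108 of 13136 (0.822%), with 73 higher (0.556%) and 35 lower (0.266%) at 14 dpw. The count was unsteady. It was 17 and 60 without fish 1 and 2 of 14 dpw, 55, 38 and 66 without fish 1, 4 and 5 of 7 dpw, 58 without fish 5 of 14 dpw, 21 with the replicate number as a block and 1 with slide as a block, where the groups shared slides 5 and 6. Without fish 3 of 7 dpw the balance turned, with 56 higher among 128 calls (43.75%), and without fish 2 of 7 dpw there were 99 higher among 135. No list had more than 4 members called, the 4 being acute phase probes that were lower at 14 dpw. Lect2 was 2.48 lower at 14 dpw (adjusted p = 0.0045), with −2.95 and −2.31 within the slides. Golgi protein YIPF5 (−3.07) and pyruvate dehydrogenase kinase 2 (−2.92) were also lower, and BRCA2 (3.24), taxilin beta (3.11) and Jak1 (2.93), a kinase of cytokine receptors, were higher. Each of these 6 kept its sign within both slides, and with slide as a block their adjusted p lay between 0.18 and 0.34. Without fish 1 of 14 dpw the adjusted p was 0.052 for BRCA2 and YIPF5, 0.056 for taxilin beta and 0.057 for Jak1, and without fish 4 of 7 dpw it was 0.062 for taxilin beta and 0.066 for Jak1. Among the fits without 1 fish, pyruvate dehydrogenase kinase 2 (adjusted p = 0.046) was called only without fish 3 of either day. Over all 20 alternative settings its call was lost in 15.

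The response of HFD fish was finally compared with that of control fish at the same day, as the change from intact skin to 7 dpw in HFD minus that in control. Control wounds lay on slides 5, 9 and 10 and control intact skin on slides 7 and 8. Control wounds thus shared 2 slides with intact HFD skin, and control intact skin shared 1 slide with HFD wounds. Slide was not balanced between the responses, and their difference cannot be fully told apart from slide. In control fish 3630 of 13026 probes (27.9%) differed between wound and intact skin, 1478 as rises (11.3%) and 2152 as falls (16.5%). The difference of the 2 responses passed for 10 of 13543 probes (0.0738%), 1 with a more positive (0.00738%) and 9 with a more negative change in HFD (0.0665%). At an unadjusted p under 0.05 there were 1985, and by the criteria of the study, which add the fold, 977 (7.21%). The count was 5 after quantile normalization, 1 with normexp, 2 in the authors' value table, 29 when all 16 groups were fitted together and 0 when slide was added to that fit. Of those 29, only 4 were among the 10, and 14 had a more positive change in HFD. The count was 104 without HFD intact fish 1, between 1 and 13 when any other fish was left out, and among these 6 without HFD intact fish 3.

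Counts in the lists are given side by side, with no test of the lists themselves. List members had been selected by the study on these same arrays for a difference between HFD and control. Unequal counts are therefore no independent evidence of such a difference. A call in 1 treatment and not in the other does not show a difference either. Matrix proteases had 14 rises among 18 in each treatment, with medians of 4.12 in HFD and 3.11 in control, and 12 collagen probes fell in each (medians −1.94 and −1.92). Replication genes had 26 rises in HFD and 6 in control, with medians of 1.09 and 0.51. Chemokines, with 28 probes, had 11 falls in HFD and 3 in control, and mucus genes, with 22, had 9 and 5. Over all tested probes 11.9% rose and 20.2% fell in HFD, and 11.3% rose and 16.5% fell in control. The shares among the named probes in control are not given. None of the 4 MHC class II probes was called in control, where their changes were −0.76, −0.35, −0.30 and −0.31, and the differences from HFD (−1.02 to −1.23) had adjusted p between 0.17 and 0.27. For GINS SLD5 and PCNA the differences of 1.17 and 0.97 had adjusted p of 0.15 and 0.18. The C-C motif chemokine 28 probes that fell in HFD changed by −0.06 and −0.01 in control, with adjusted p of 0.11 and 0.13 for the difference. No member of the 21 lists passed except the mannose-binding lectin and an ammonium transporter.

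The difference passed for 3 named probes, all with a more negative change in HFD. The C-type mannose-binding lectin stood in control fish at 1.54, 1.36, 1.71 and 2.14 before wounding and at 1.39, −0.04, 1.68, 0.65 and 0.34 at 7 dpw, against a fall to below 0 in all 5 HFD wounds. The difference of the responses was −3.77 (adjusted p = 0.026). Ammonium transporter Rh type B, a gas and ammonia channel, had levels of 0.28, 0.15, 0.61 and 0.56 in intact HFD skin and −2.51, −2.22, −1.21, −2.06 and −1.71 in HFD wounds. In control fish its means were −0.18 and 0.24, with wounds on both sides of the intact fish, and the difference was −2.76 (adjusted p = 0.029). Calpain 9, a protease of mucosal epithelia in mammals, differed by −0.76 (adjusted p = 0.11) in HFD and rose by 2.08 in control, a difference of −2.83 (adjusted p = 0.026). In HFD the groups overlapped, while all control wounds were above all control intact fish. With slide as a block over 16 groups the differences of these 3 were −3.12, −3.19 and −2.59 with adjusted p of 0.69, 0.61 and 0.54. Leaving out any 1 of the 4 control intact fish raised the adjusted p of all 3 to between 0.052 and 0.099, as did leaving out HFD intact fish 2 or 4, HFD wound fish 1 or 2 or control wound fish 5. The transporter also lost its call without HFD intact fish 3, HFD wound fish 4 or control wound fish 2 or 3 (0.054 to 0.089).

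**Figure D4:**
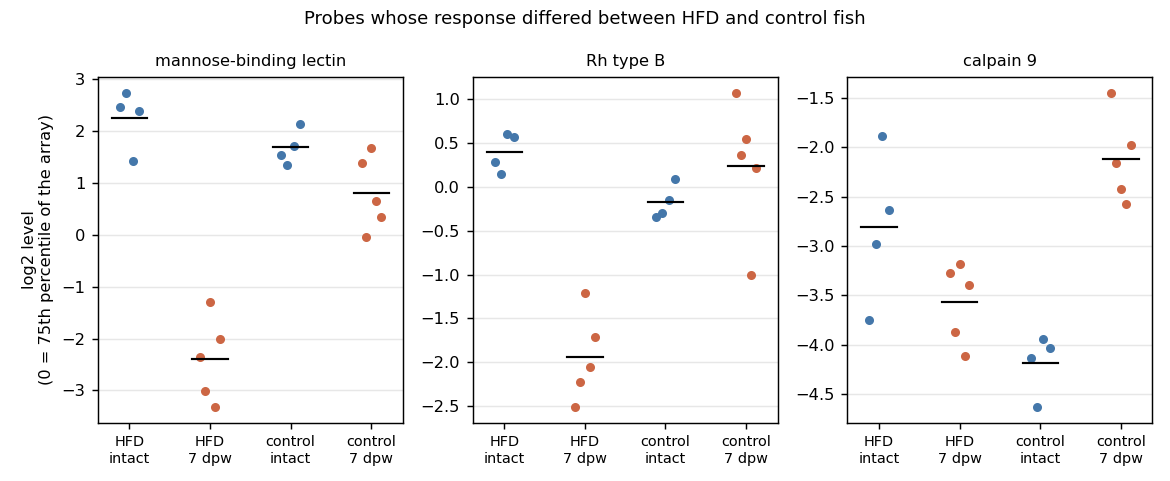
Level of C-type mannose-binding lectin, ammonium transporter Rh type B and calpain 9 (y axis, log2, 0 at the 75th percentile of the array) in each fish of HFD and control skin, intact and at 7 dpw (x axis), with bars at the group means. The lectin falls to a mean of −2.40 in HFD wounds and stands at 0.80 in control wounds.

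On the more positive side no named probe passed after adjustment. By the criteria of the study (unadjusted p), epigen had the largest difference (2.67, adjusted p = 0.19), rising by 3.16 in HFD and differing by 0.48 in control. Glutamate decarboxylase-like protein 1 followed with 2.56 (adjusted p = 0.25), then cytosolic phospholipase A2 gamma with 2.36 (0.16), cystatin-F with 1.92 (0.15) and a synovial sarcoma X breakpoint 2 interacting protein with 1.85 (0.25).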

How the data were processed

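Total RNA of salmon skin was hybridised by the authors to a 1-colour Agilent oligonucleotide array of 15377 spots, Cy3 labelled, with another fish on each array used here. The deposited scanner files hold background-subtracted spot intensity from Agilent Feature Extraction, not scaled between arrays. The authors' value table holds linear intensity per probe with every array scaled to nearly the same total (99.75% to 100.1% of the mean total), and its further processing is not given in the sources used here.

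From the processed intensity, 536 control spots were left out, log2 was taken and the 75th percentile of each array was subtracted. Outlier spots were dropped, which left a group short of a fish where stated. Probes were tested where the number of arrays well above background reached the size of the smaller group. Groups were compared by the lmFit and eBayes functions of limma (3.58.1, under R 4.3.3), with only the groups compared and no covariates, and Benjamini-Hochberg adjustment over all probes tested. A call needed an adjusted p under 0.05 and a log2 fold change beyond 0.8, and the criteria of the study were the same fold with an unadjusted p under 0.05. Where a group was well above background on no array, the fold is given as a lower bound, which holds for the main setting only. It sets the mean of the brighter group against, per array, the higher of the probe's own signal and the lowest signal among probes well above background.

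Names came from the gene list of the study, matched by probe identifier for 771 probes. The lists of genes and the members described were chosen with earlier results of these data known. By the rule for named probes, 93 were named. These were the 10 largest rises and 10 largest falls without overlap, the extreme called members of each list, all probes of a fixed set of genes, and the extremes of the other comparisons. For the difference from control, the positive side was filled by the criteria of the study. A further 69 were picked from the lists with their values in view. Signals of overlapping gene copies were not separated. On data simulated for the main comparison (13052 probes, 200 changed), 47% of log2 changes of 1 and 90% of those of 2 were found, and 10 unchanged probes were called. The share of changed probes was far smaller than the share called in the real comparison. Since the adjustment depends on that share, these values are not the power of the real comparison. With the number of arrays limiting precision, p-values measure the spread between these fish. The gene names give no probe sequence, and none is shown.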

Additional observations from a re-analysis of the deposited data

Results flagged for a closer look

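In 323 groups of 4 or 5 values tested for a single fish far from the rest (Dixon's criterion), 29 passed. The limit passes about 1 in 20 single groups by chance. These groups are not independent, since several hold probes of one gene in the same fish, and some probes were picked with their values in view. The 29 are therefore no measure of an excess. Of the 29, 14 were wound fish 3, lowest of its group each time, and 7 were intact fish 3, lowest in 4. No cause was tested.

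Wound fish 3 stood at −1.28 for macrophage inflammatory protein 2-alpha (other wounds 1.54 to 2.53). Its collagenase 3 probes read 4.84, 5.03 and −0.078, where the other wounds began at 5.96, 6.16 and 1.16. Its mmp9 probes read −4.80, 3.75 and −1.58, where the others began at −2.81, 4.90 and −0.39. It was also lowest for interleukin-1 receptor type II (0.45), interleukin-1 beta (−5.47), interleukin-1 beta 2 (−2.70), M17 (−3.86), leukotriene B4 receptor 1 (−4.35), epigen (2.13) and P-selectin (−1.16). All but epigen are proteases or inflammatory genes, and the fish was above the intact range for each of them except interleukin-1 beta, interleukin-1 beta 2 and the leukotriene receptor.

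Intact fish 3 was low for type X collagen (−3.22), papilin (−0.91, others 2.29 to 2.50), C-C motif chemokine 20 (−3.13, others −1.17 to −1.11) and cystatin-F (−5.20), and high for both probes of C-X-C motif chemokine 10 (−1.30 and −1.02) and cytochrome P450 4F3 (−1.21).

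Other single values were serine protease 23 in wound fish 2 (−0.73), periostin in wound fish 2 (0.61), keratin 20 in wound fish 5 (−1.72), erythroid 5-aminolevulinate synthase in wound fish 5 (0.53) and defensin beta 4 in wound fish 4 (−0.59). In intact skin they were leukotriene B4 receptor 1 in fish 1 (−6.54), and an MHC class II DP alpha chain (4.52) and a synovial sarcoma X breakpoint 2 interacting protein (−0.82) in fish 4.

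The response differed between HFD and control by the interaction term for C-type mannose-binding lectin (−3.77), ammonium transporter Rh type B (−2.76) and calpain 9 (−2.83), with the limits given in the report.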

How the results depend on the processing

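Of 3399 values of named probes recomputed for HFD wounds against intact skin, 3246 kept their direction and side of the threshold, 126 lost the call (34 probes), 18 gained it and 9 changed sign. The signs that changed belonged to differences not called or called narrowly. Interleukin-1 beta 2 gave 0.038 in the authors' table, and leukotriene B4 receptor 1 gave −0.034 with normexp. The uncalled giant mucus protein probe gave 0.0025 with normexp, 0.62 in the authors' table, 0.24 with intact fish of both treatments, 0.14 centred on the median, and −0.27 to 0.088 over fits without 1 fish. The synovial sarcoma X breakpoint 2 interacting protein gave −0.46 with intact fish of both treatments and −0.12 to 0.40 without 1 fish. The cause was not tested.

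The count of 4194 calls kept within 1.5 times under every alternative, the extremes being 3469 (replicate number as a block) and 4681 (authors' table), though 2292 of those 4681 were among the 4194. The fit of all 16 groups with slide as a block (3703) and the centring were chosen after seeing the data. Fish with the same number did not deviate together (correlations −0.303, 0.0339, −0.164 and −0.251 over 11290 probes), so the number does not pair them. Calls between the responses of HFD and control (10) were 5 with quantile normalization, 1 with normexp, 2 in the authors' table, 6 with probes well above background on every array, 29 with all 16 groups (4 of them among the 10), 0 with slide added, 977 by the criteria of the study and 1 to 104 without 1 fish. Calls between 7 and 3 dpw (1173) were 618 with normexp and 561 with slide as a block. Calls between 14 and 7 dpw (108) were 64 in the authors' table, 54 by analysis of variance, 21 with the replicate block, 1 with slide as a block, 531 by the criteria of the study and 17 to 135 without 1 fish.

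Normexp was planned on mean signals, but the files hold medians. It shrinks changes of dim probes, such as toll-like receptor 5 (0.70), prostaglandin G/H synthase 2b (0.38) and an mmp9 probe (0.42). None of these was still called with normexp (adjusted p 0.089, 0.25 and 0.15). No intact HFD array shared a slide with an HFD wound at 7 dpw, so the main comparison has no value within a slide. With slide as a random block (correlation 0.0658) there were 4107 calls, 4101 of them shared.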
